A study of Homo sapiens with 3 samples.

Results

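The comparison set the array of MCF12A cells kept for 4 weeks with acetaldehyde against the array of MCF12A cells kept for 4 weeks with ethanol, which are 2 of the 3 arrays of the series. MCF12A is an immortalized, non-tumorigenic line of human mammary epithelial cells, grown here in medium with horse serum, epidermal growth factor, hydrocortisone, insulin and cholera toxin. The arrays were chosen by their labels, and all 2019 human microRNA probes of the array design entered, whatever their values. The unexposed control array is given beside the exposed arrays for orientation. Each group had 1 array, so no difference has a replicate check and no p-value was computed. The error printed is the SD, over the spot positions of a probe, of the difference between the 2 exposed arrays at each position. It covers printing and reading of spots but not variation between cultures. The sample characteristics give 2.5 mM ethanol and 1 mM acetaldehyde, while the treatment protocol gives 2.5% and 1%. The protocol also describes a clone selected in soft agar, which no label ties to an array. On either reading of the doses compound and dose differ together and cannot be told apart.

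Ethanol is oxidized to acetaldehyde, mainly by alcohol dehydrogenases and CYP2E1, and acetaldehyde is a reactive compound that binds proteins and DNA before aldehyde dehydrogenases convert it to acetate. MicroRNAs are short RNAs that lower the output of messenger RNAs. They pair with their targets mostly through the seed, bases 2 to 8 from the 5′ end, so microRNAs with the same seed share many targets. In the sequences below the seed is in capitals, and sequences and positions are those of RefSeq on GRCh38.p14 where they were identical to the sequence listed for the array.

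MicroRNAs with a common seed often, but not always, stood on the same side of the comparison. Members of the miR-181 family, for example, differed in sign. The 9 guide strands of the let-7 family, shown first because they had the lowest median difference of the 25 lists compared, share the seed and much of the rest.
let-7a-5p: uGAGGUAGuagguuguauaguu
let-7b-5p: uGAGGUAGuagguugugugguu
let-7c: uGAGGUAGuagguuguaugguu
let-7d-5p: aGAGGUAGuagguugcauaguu
let-7e-5p: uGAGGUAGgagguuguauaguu
let-7f-5p: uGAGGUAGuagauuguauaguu
let-7g-5p: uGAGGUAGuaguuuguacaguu
let-7i-5p: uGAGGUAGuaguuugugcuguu
miR-98-5p: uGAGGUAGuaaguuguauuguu
The next set carries the seed of miR-17 and its relatives, one of the groups on the higher side.
miR-17-5p: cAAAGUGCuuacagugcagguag
miR-20a-5p: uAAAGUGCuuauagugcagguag
miR-20b-5p: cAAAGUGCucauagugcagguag
miR-93-5p: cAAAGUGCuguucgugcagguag
Single microRNAs that stood far apart between the arrays follow, with miR-23a-3p as the near neighbour of miR-23c and miR-29a-3p as that of miR-29c-3p.
miR-203a: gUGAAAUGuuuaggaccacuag
miR-23c: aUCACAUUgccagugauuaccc
miR-23a-3p: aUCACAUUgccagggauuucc
miR-29c-3p: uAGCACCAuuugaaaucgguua
miR-29a-3p: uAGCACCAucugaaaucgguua
miR-4521: gCUAAGGAaguccugugcucag
miR-4668-5p: aGGGAAAAaaaaaaggauuuguc
miR-3613-3p: aCAAAAAAaaaagcccaacccuuc

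The arrays differed in background. The empty spots of the ethanol array had a median intensity of 148 and an SD of 31.6, those of the acetaldehyde array 65.8 and 10.97. A microRNA was called detected when it exceeded that median by 3 SD, so the ethanol array asked for 243 and the acetaldehyde array for 98.8. With ethanol 347 microRNAs passed and with acetaldehyde 1430, the 347 among them. The remaining 1083 (53.6% of 2019) passed on the acetaldehyde array only, and of those 95.9% read below the lowest intensity detected with ethanol (271). Fold changes were therefore read over the 347 microRNAs detected on both arrays. Before normalization the 43 spike calibration probes, which report labelling and hybridization, were brighter on the acetaldehyde array by a median log2 difference of 0.62, with 40 of 43 higher. The 6 probes for 5S ribosomal RNA had a median of 0.05 but ran from -0.64 to 0.19, with 3 above 0 and 3 below. The differences below come after quantile normalization and are relative to the other microRNA probes.

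A difference of 2-fold or more was found for 21 of the 347: 8 (2.31%) read higher with acetaldehyde and 13 (3.75%) lower. At 1.5-fold the counts were 50 (14.4%) and 61 (17.6%), and 236 (68.0%) lay within 1.5-fold. The median log2 difference (acetaldehyde minus ethanol) was -0.11 and the SD across microRNAs 0.57, while the median SD over spot positions was 0.13. The spread across microRNAs was thus wider than the spread of a difference over spot positions. Without normalization the median of all 347 moved to 0.17 and the split was 15 higher and 12 lower, and with values shifted on the spike probes the median was -0.50 and the split 1 and 72. By cyclic loess the split was 5 and 16, and by median scaling 6 and 13. With no detection filter it was 13 and 15, and of all 2019 probes 1026 were above 0 and 984 below. Every microRNA detected with ethanol was also detected with acetaldehyde, so the ethanol array set which 347 entered. Their split and signs carry that selection. All 21 microRNAs kept their direction under all 16 other settings tried, these included. The differences of 14 of the 21 stayed past 2-fold in the 14 settings that use no control probes, detection in each setting left aside. At a detection level of 5 SD, 6 of the 8 higher and 12 of the 13 lower ones were still called.

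**Figure D1:**
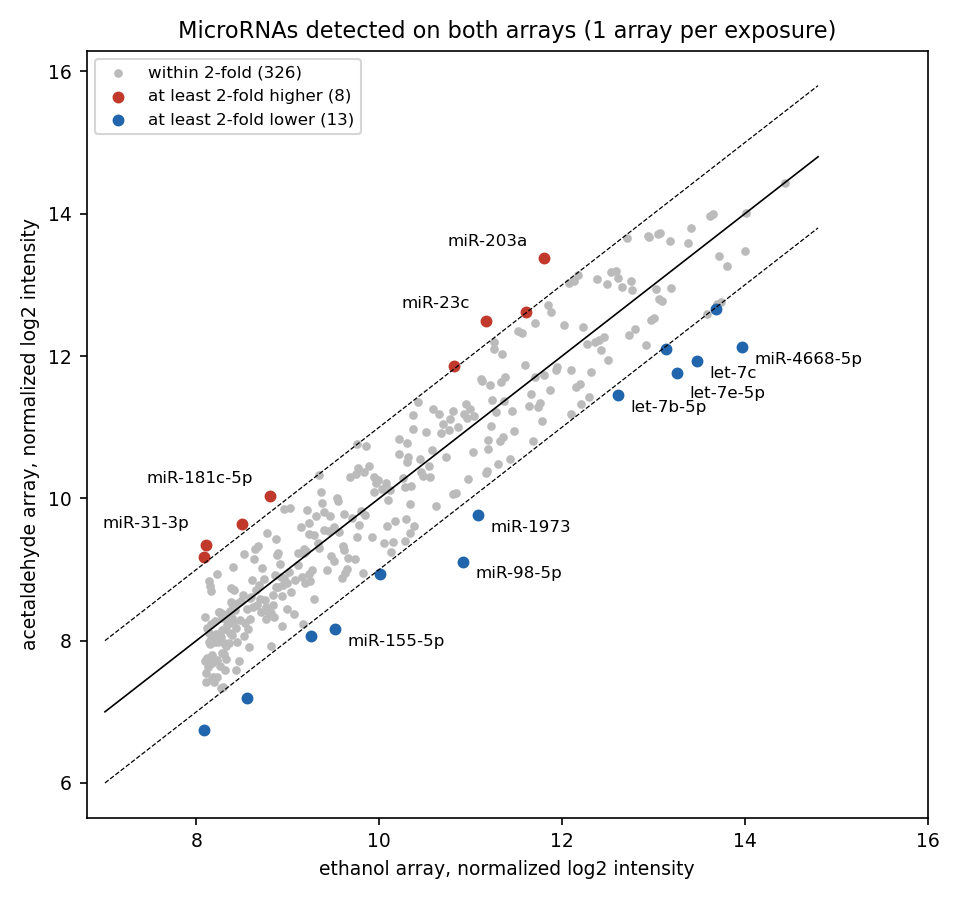
Normalized log2 intensity of the 347 microRNAs detected on both arrays, ethanol array on the x axis and acetaldehyde array on the y axis, 1 point per microRNA; the solid line marks equal values and the dashed lines a 2-fold difference. The 8 microRNAs past 2-fold upward (red) include miR-203a and miR-23c, and the 13 past it downward (blue) include 4 let-7 guides and miR-4668-5p.

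On the higher side stood miR-203a and both arms of miR-31, 3 of the 4 members of the stratified epithelium list. Of the listed markers of mammary epithelium, only miR-203a passed 2-fold. Short of it were miR-31-5p and miR-141-3p at 0.94, miR-221-3p at 0.61, miR-222-3p at 0.48 and miR-200c-3p at 0.15. The value of miR-205-5p was 0, fixed by its rank as described below. miR-203a, which represses p63 and acts in keratinocyte differentiation, had a normalized intensity of 3579 with ethanol and 10638 with acetaldehyde, against 5037 on the control array. Its spots read 2836 to 3477 before normalization with ethanol and 9874 to 10717 with acetaldehyde, so the spots of the arrays did not overlap. The difference was 1.57 ± 0.17 on the log2 scale (SD over 4 spot positions), or 2.97-fold, the highest of the 347. The control array lay between the exposed arrays (ethanol minus control -0.49, acetaldehyde minus control 1.08). MIR203A lies at chr14:104117469-104117490, outside the span of any other gene in the RefSeq table.

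Both arms of miR-31, a microRNA of basal epithelial cells, were higher with acetaldehyde. miR-31-3p read 275 with ethanol and 651 with acetaldehyde (1.24 ± 0.33). Its 4 position differences were 1.02 to 1.72, and the highest came from 1 dim spot on the ethanol array (178 against 253 to 295). The detection level of that array was 243, so miR-31-3p lay close to it. The partner arm miR-31-5p, given as the other strand of that hairpin and outside the naming rule, went from 2438 to 4685 (0.94 ± 0.10). The top-ranked probe on every array was miR-205-5p, a marker of basal mammary epithelium that restrains ZEB factors, so normalization gave it the same value of 22121 and a difference of 0 by construction. Before normalization it stood 0.59 higher with acetaldehyde. The same holds for miR-21-5p, at 16567 on each array and 0.49 higher before normalization.

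miR-23c was 2.50-fold higher (1.32 ± 0.10), from 2305 with ethanol to 5771 with acetaldehyde, with the control at 3670. Its relatives miR-23a-3p and miR-23b-3p, which share its seed, differed by 0.34 ± 0.08 and 0.35 ± 0.07. The gap between miR-23c and these relatives is wider than their position SDs, but it depends on the scaling. Both relatives are among the most intense probes of the acetaldehyde array, where quantile normalization fixes the values of the ranks. Without normalization they stood at 0.63 and 0.68, and miR-23c at 1.21. MIR23C lies at chrX:20017101-20017122 within the span of MAP7D2, away from the miR-23a and miR-23b clusters on chromosomes 19 and 9. Because the sequences are alike, a probe may also read its neighbours. The partners miR-27a-3p and miR-27b-3p, which repress adipogenic and FOXO targets, stood at 0.94 ± 0.17 and 0.96 ± 0.14, and miR-24-3p at 0.66 ± 0.06. These partners are given to complete the clusters and were named after their values were seen.

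In other families too a single member passed 2-fold upward. miR-181c-5p read 447 with ethanol and 1049 with acetaldehyde (1.23 ± 0.10), whereas miR-181a-5p stood at 0.57 ± 0.08, miR-181b-5p at 0.02 ± 0.12 and miR-181d at -0.29 ± 0.17. The miR-181 family is known from lymphocyte development and its members differed in sign (miR-181d was named after its value was seen). miR-29c-3p, of a family that targets collagens and DNA methyltransferases, went from 3116 to 6281 (1.01 ± 0.07), against 0.39 ± 0.10 for miR-29a-3p. In the deposited table miR-29c-3p stood at 0.75, short of 2-fold.

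miR-96-5p, which represses FOXO factors, read 362 with ethanol and 799 with acetaldehyde, a difference of 1.14 ± 0.04. The other members of its cluster, whose 3 hairpins lie within 4606 bases on chromosome 7, did not share that value. miR-182-5p was 0.53 ± 0.11 higher and miR-183-5p, from 1138 to 671, stood at -0.76 ± 0.07. The spots of miR-183-5p read 1016 to 1068 with ethanol and 577 to 665 with acetaldehyde before normalization, and did not overlap. The 3 microRNAs of this cluster thus pointed in different directions, with position SDs far below the gaps between them.

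The remaining higher ones were miR-135b-5p, from 272 to 577 (1.09 ± 0.18), and miR-22-3p, from 1808 to 3732 (1.05 ± 0.14, 3 spot positions). The ethanol spots of miR-135b-5p, 214 to 259 before normalization, lay on either side of the detection level of 243. Its difference ranged from 0.99 to 1.54 over the settings that use no control probes. One acetaldehyde spot of miR-22-3p was dark, at 515 beside 3753 to 3867, and with that spot kept the difference was 0.33. Just below 2-fold stood miR-5096 at 1.00 ± 0.09 and miR-101-3p, which represses EZH2, at 0.99 ± 0.15, and just above it miR-29c-3p and miR-22-3p.

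**Figure D2:**
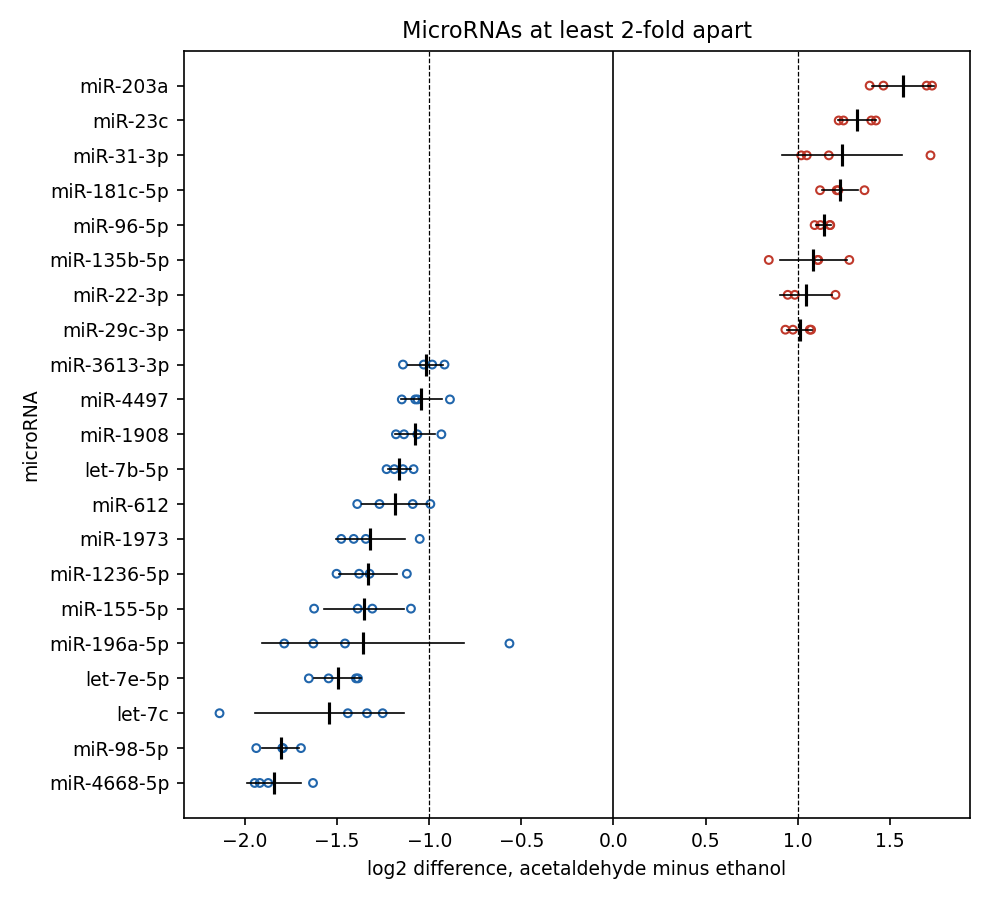
Log2 difference (acetaldehyde minus ethanol) of the 21 microRNAs at least 2-fold apart; open circles are the spot positions, 4 per microRNA (3 for miR-22-3p), bars the mean and horizontal lines the SD over positions, dashed lines 2-fold. miR-203a stands highest at 1.57 and miR-4668-5p lowest at -1.84, and let-7c, miR-31-3p and miR-196a-5p have the widest spread over positions, with SDs of 0.40, 0.33 and 0.55.

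Among the microRNAs detected on the acetaldehyde array alone, miR-4521 and miR-3065-5p reached an intensity of 500. miR-4521 read 985 with acetaldehyde and 170 with ethanol, where it was not above background, and 469 on the control array. Its ethanol spots lay between 150 and 165 before normalization, close to the empty spots, and its acetaldehyde spots between 822 and 1016. Against the lowest level detected on the ethanol array it was at least 3.64-fold higher with acetaldehyde. miR-3065-5p read 579 with acetaldehyde and 244 with ethanol, at least 2.14-fold higher by the same bound. MIR4521 and MIR3065 lie on chromosome 17, at chr17:8186948-8186969 and chr17:81125886-81125908, the latter within the span of AATK. In the opposite direction, 0 microRNAs were detected with ethanol alone. Detection asked for 243 with ethanol but only 98.8 with acetaldehyde. A microRNA past the higher level could thus fall far and still pass the lower one. This 0 therefore cannot show that no microRNA was lost with acetaldehyde.

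On the lower side the let-7 guides, which restrain RAS, MYC and HMGA2 and mark differentiated cells, were below their ethanol level in all 9 members, where 191 (55%) of the 347 microRNAs were below 0 and 152 (43.8%) above. The median difference was -0.997 over the 9, against -0.11 for all 347 microRNAs, and 4 of the 9 were at least 2-fold lower, beside 13 (3.75%) of the 347. All 9 were lower at every spot position kept, as were 161 (46.4%) of the 347. Settings that use no control probes put this median at -1.38 to -0.996, and it was -1.92 with values shifted on the spike probes.

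Within the family the differences ran over a wide range. miR-98-5p, which has the let-7 seed and lies in the span of HUWE1 at chrX:53556299-53556320, read 1936 with ethanol and 553 with acetaldehyde, 3.50-fold lower (-1.81 ± 0.10). Its ethanol spots of 1766 to 2074 and acetaldehyde spots of 476 to 584 lay far apart before normalization. let-7c went from 11381 to 3906 (-1.54 ± 0.40) and let-7e-5p from 9805 to 3476 (-1.50 ± 0.13). The wide SD of let-7c came from 1 acetaldehyde spot of 2669 beside 4168 to 4686, all below its ethanol spots of 10821 to 11652.

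let-7b-5p went from 6260 to 2797 (-1.16 ± 0.06), and 3 members lay just short of 2-fold. These were let-7d-5p at -0.997 ± 0.08, let-7a-5p at -0.98 ± 0.10 and let-7f-5p at -0.96 ± 0.07 (3 positions). let-7i-5p (-0.42 ± 0.06) and let-7g-5p (-0.29 ± 0.04) differed least. For 8 of the 9 the ethanol array stayed near the control array, with ethanol minus control between -0.26 and 0.08. miR-98-5p was the exception at 0.64, with a control intensity of 1241. The 9 microRNAs share most bases, so the probes are not independent readings.

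The passenger strands of the same hairpins were mostly too dim on the ethanol array. Of 10 on the array, 1 was detected with ethanol and 10 with acetaldehyde, beside 347 and 1430 of all 2019 probes. The one detected on both, let-7d-3p, went from 966 to 706 (-0.45 ± 0.03), a smaller difference than that of its guide let-7d-5p.

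Several let-7 hairpins are transcribed together with miR-99/100 and miR-125 hairpins, so that neighbours of one transcript can be set side by side. miR-99 and miR-100 repress mTOR, and miR-125 targets p53 pathway and LIN28 transcripts. On chromosome 19, where MIR99B, MIRLET7E and MIR125A lie within 0.728 kb (chr19:51692612-51693339), the log2 difference was -1.50 ± 0.13 for let-7e-5p, 0.41 ± 0.06 for miR-99b-5p and 0.01 ± 0.21 for miR-125a-5p. On chromosome 21, let-7c stood at -1.54 ± 0.40 and its neighbour miR-99a-5p at 0.60 ± 0.17, from 1326 to 2015. miR-125b-5p, which is encoded there and again on chromosome 11, was higher by 0.76 ± 0.13. On chromosome 11, miR-100-5p stood at 0.32 ± 0.21 and let-7a-5p, which has 2 further loci, at -0.98 ± 0.10. In each of the 3 loci the let-7 member was past or near 2-fold lower and the neighbours were at or above 0, although miR-125a-5p stood at -0.03 in the deposited table. The miR-99/100 and miR-125 members were 5 of 5 above 0 with a median of 0.41, which became -0.19 with values shifted on the spike probes.

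**Figure D3:**
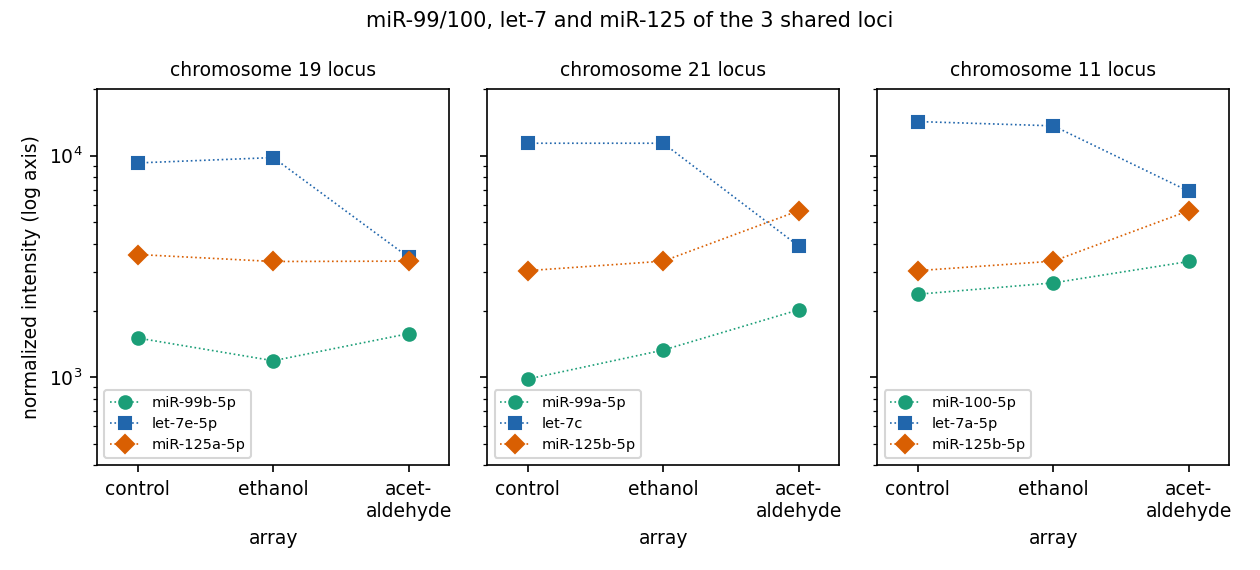
Normalized intensity (log axis) on the control, ethanol and acetaldehyde arrays of microRNAs from the 3 loci that hold a miR-99/100, a let-7 and a miR-125 hairpin; each line is 1 probe, to be read across arrays and not against another probe. The let-7 probe of each locus is lower on the acetaldehyde than on the ethanol array (9805 to 3476, 11381 to 3906 and 13637 to 6908), while the others are level or higher.

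Of the microRNAs outside let-7, miR-4668-5p was the lowest of all 347. It read 16053 with ethanol and 4474 with acetaldehyde (-1.84 ± 0.14), with the control at 6260, so more of the gap lay on the ethanol side (ethanol minus control 1.36, acetaldehyde minus control -0.48). miR-3613-3p showed the same order, 13110 with ethanol, 6472 with acetaldehyde and 6908 on the control array (-1.02 ± 0.09). The listed sequences of both hold a run of 10 A, longer than in any other of the 347. The next longest run, 6 A, is in miR-3148, at -0.28 ± 0.10, chosen after its values were seen. The labels describe a poly(A) tail added before staining. Whether such runs bear on the readings was not tested. MIR4668 lies within the span of UGCG (chr9:111932100-111932122) and MIR3613 within that of DLEU2 (chr13:49996426-49996449).

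miR-155-5p, which acts in activated immune cells and in inflammation, read 732 with ethanol, 286 with acetaldehyde and 364 on the control array (-1.36 ± 0.22). Its spots were 655 to 714 with ethanol and 255 to 372 with acetaldehyde, with no overlap. The other inflammation-linked microRNAs gave little to compare, since miR-146a-5p and miR-146b-5p were not detected with ethanol. miR-196a-5p, from a HOX cluster, went from 375 to 146 (-1.36 ± 0.55), and without normalization stood at -0.76. miR-1973, whose locus on chromosome 4 lies within the span of MTRNR2L13, annotated as a pseudogene, went from 2173 to 870 (-1.32 ± 0.19). miR-612 (612 to 269, -1.19 ± 0.18), miR-1908 (-1.08 ± 0.11) and miR-4497 (-1.04 ± 0.11) were lower as well. So was miR-1236-5p (-1.33 ± 0.16), named after its values were seen because it stayed below an intensity of 500. It read 271 with ethanol, the lowest intensity detected on that array. Of these, miR-612 (-0.80), miR-1908 (-0.88) and miR-1236-5p (-0.82) fell short of 2-fold without normalization, while miR-4497 stood at -1.03.

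The miR-320 family formed a tight group on the lower side. The miR-320a precursor is known to be made without Drosha. All 5 members were detected and lay between -0.82 and -0.76, with a median of -0.79. miR-320a, for example, went from 2529 to 1431 (-0.82 ± 0.13) and miR-320c from 2318 to 1337 (-0.79 ± 0.06). All 5 were lower at every spot position, as were 46.4% of the 347, and none reached 2-fold, where 3.75% of the 347 did. By the array's sequences miR-320a to miR-320d and miR-4429 (-0.89 ± 0.10) hold the same bases 2 to 8, and these had a median of -0.81, while miR-320e was not among them. The sequences shown here are alike over much of their length, so their probes may read each other.
miR-320b: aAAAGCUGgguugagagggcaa
miR-320c: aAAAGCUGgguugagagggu
miR-320d: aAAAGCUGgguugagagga
miR-4429: aAAAGCUGggcugagaggcg

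Opposite to these stood the cluster of miR-17 to miR-92a with its paralogs, growth-promoting microRNAs under MYC control. All 12 detected members of 13 were higher with acetaldehyde, and all 12 at every spot position, as were 113 (32.6%) of the 347 microRNAs. Their median was 0.66, and 0 of 12 reached 2-fold upward, where 8 (2.31%) of the 347 did. Several of the 12 have sequences alike over much of their length, such as miR-17-5p and miR-106a-5p, so their probes may read each other. The median kept its sign in all alternatives but was 0.0735 with values shifted on the spike probes.

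The 6 members with the miR-17 seed lay at 0.53 to 0.93. miR-17-5p went from 7845 to 13243 (0.76 ± 0.14), miR-20a-5p from 8483 to 13433 (0.66 ± 0.13) and miR-20b-5p from 4474 to 8528 (0.93 ± 0.17). miR-106a-5p (0.72 ± 0.12), miR-106b-5p (0.67 ± 0.20) and miR-93-5p (0.53 ± 0.08) followed. Those with other seeds were spread more widely. miR-18a-5p stood at 0.89 ± 0.11, miR-18b-5p at 0.70 ± 0.11, miR-19a-3p at 0.62 ± 0.15 and miR-19b-3p at 0.41 ± 0.12 (3 positions). miR-25-3p (0.31 ± 0.10) and miR-92a-3p (0.21 ± 0.10), which share a seed of their own, lay lowest of the 12, and miR-92a-3p stood at -0.02 in the deposited table. miR-17-5p and miR-92a-3p are both encoded within 787 bases of chromosome 13 (chr13:91350605-91351391), but miR-92a-3p and miR-19b-3p have a further locus on chromosome X, in the cluster with miR-106a, so these probes cannot be assigned to a single cluster.

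The miR-30 family, which restrains mesenchymal transition in epithelial cells, was higher in 5 of 5 members with a narrow range of 0.74 to 0.95. Some of its sequences, such as miR-30a-5p and miR-30e-5p, are nearly alike, so those probes may read each other. miR-30b-5p went from 4329 to 8380 (0.95 ± 0.12), miR-30c-5p from 3670 to 6715 (0.87 ± 0.12) and miR-30e-5p from 1318 to 2305 (0.81 ± 0.07). miR-30d-5p (0.75 ± 0.10) and miR-30a-5p (0.74 ± 0.07) completed the family. Its median of 0.81 was the highest of the 15 seed families with at least 3 detected members, and the miR-15/16 family, which targets cyclins and BCL2, ranked after miR-30 and miR-17, at 0.62 with 5 of 5 members above 0. In that family miR-424-5p stood at 0.83 ± 0.17 (3 positions), miR-16-5p at 0.64 ± 0.13, miR-195-5p at 0.62 ± 0.20, miR-15a-5p at 0.42 ± 0.15 and miR-15b-5p at 0.18 ± 0.13 (-0.05 in the deposited table). Of the 15 seed families, 7 had every detected member above 0 and 4 every one below.

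Other lists on the higher side were small. The pair miR-103a-3p (0.84 ± 0.13) and miR-107 (0.68 ± 0.10), which act on insulin signalling, went from 2452 to 4384 and from 2594 to 4158. miR-221-3p (0.61 ± 0.31, 3 positions, with a dark acetaldehyde spot) and miR-222-3p (0.48 ± 0.20), markers of basal breast cells, stood above 0, but in the deposited table they stood at only 0.06 and 0.16, and the median of the pair was 0.11 there in place of 0.54. miR-26a-5p (0.69 ± 0.12) and miR-26b-5p (0.38 ± 0.22) were higher too. Of the p53-linked microRNAs, 3 of 6 were detected on both arrays, with miR-194-5p at 0.61 ± 0.19 and miR-34a-5p at 0.15 ± 0.08 (3 positions).

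The miR-200 family, which keeps cells epithelial through its repression of ZEB factors, did not move as a group. Of its 5 members, 3 were detected on both arrays, and miR-200a-3p (127 with ethanol) and miR-429 (101) were not detected with ethanol. miR-141-3p went from 1374 to 2627 (0.94 ± 0.05), while miR-200c-3p from the same locus on chromosome 12 stood at 0.15 ± 0.14 and miR-200b-3p at -0.13 ± 0.17. These last values lie within about their position SD of 0.

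**Figure D4:**
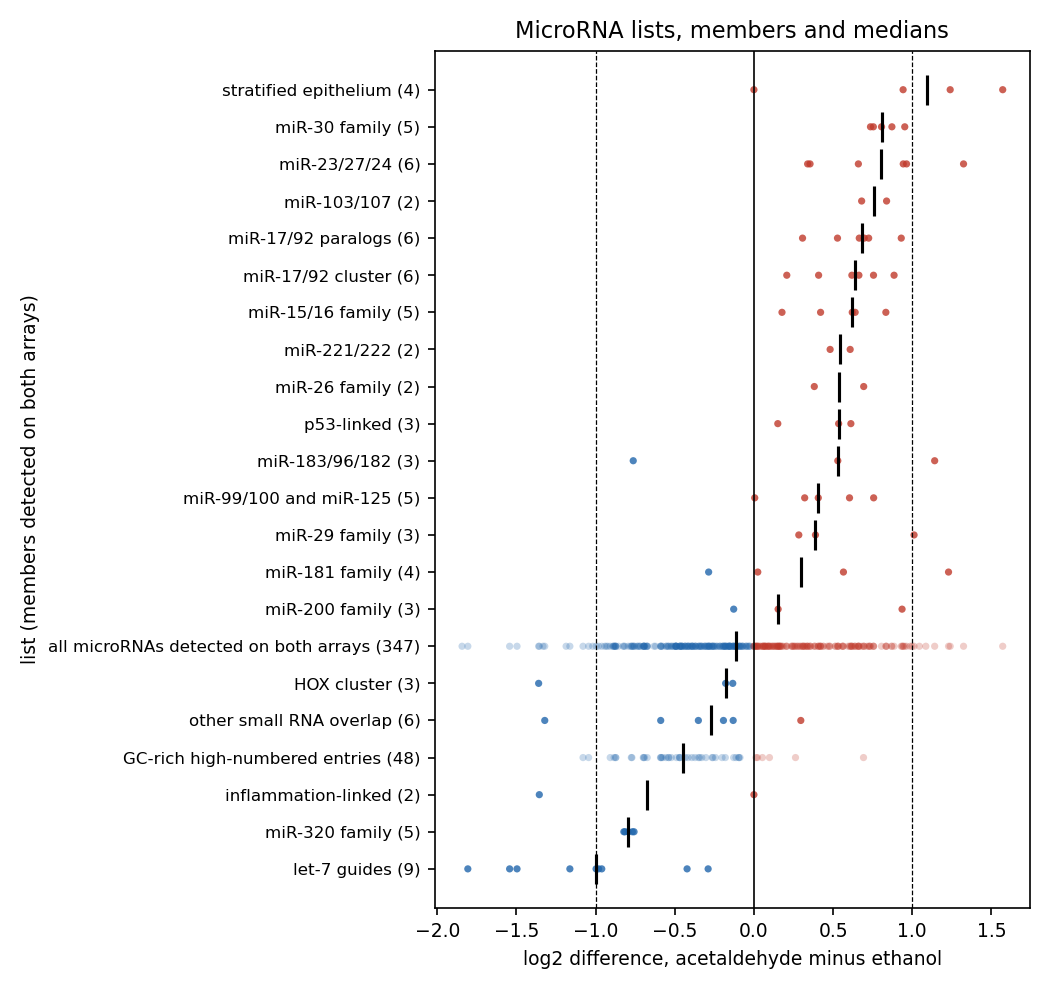
Log2 difference (acetaldehyde minus ethanol) of the members of each list detected on both arrays, with their number in parentheses; each point is 1 microRNA, red above and blue below 0, and black bars are medians. The let-7 guides (median -0.997) and the miR-320 family (-0.79) lie lowest and the stratified epithelium list (1.09) and the miR-30 family (0.81) highest, around a median of -0.11 for all 347. The stratified epithelium list counts both arms of miR-31.

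Both arms of a hairpin could be read on both arrays for 16 hairpins with 1 arm at an intensity of at least 500. Of these the widest gap between arms was that of miR-30a, with miR-30a-5p at 0.74 ± 0.07 and the dim miR-30a-3p, from 290 to 180, at -0.69 ± 0.09. Without normalization and in other settings the latter ranged from -1.49 to -0.11. miR-193a followed, with miR-193a-5p from 449 to 242 (-0.89 ± 0.28) and miR-193a-3p from 634 to 860 (0.44 ± 0.17), and then miR-1228, with arms at -0.13 ± 0.04 (5p) and 0.69 ± 0.14 (3p).

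The GC-rich high-numbered entries, taken here as names numbered 1200 or higher whose sequence is at least 75% G plus C, split by detection. Of 89 on the array, 48 were detected on both arrays, with 42 below 0, 6 above and a median of -0.45. Of the 41 not detected on both, 38 were above 0 and 2 below, with a median of 0.41. Over all 89 the median was 0, with 44 on either side, so the lower values of the 48 hold for members above the detection level of the ethanol array and not for the list. Of the 48, 39 were lower at every spot position and 2 at least 2-fold lower, beside 46.4% and 3.75% of the 347. miR-3960 went from 16336 to 11381 (-0.52 ± 0.08) and miR-6089 from 14255 to 9805 (-0.54 ± 0.10). On the ethanol array both ranked among the 5 most intense probes.

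The difference also went with base content among detected microRNAs. Across the 347 microRNAs, Spearman's rho between the difference and the percent G was -0.46, and between the difference and the percent A 0.32. Without normalization rho for G was -0.51, in the deposited table -0.49, and without the let-7 guides -0.47. With no detection filter rho for G was weaker, at -0.31 over all 2019 probes, and -0.17 there without normalization. The points share 2 arrays, families and overlapping sequences, so these are descriptions. Split into 4 bins of G content, the median difference was 0.28 in the lowest bin (87 microRNAs, 4.17% to 22.7% G), 0.24 in the next (up to 36.4%), -0.41 in the one above (up to 52.2%) and -0.31 in the highest (up to 90.5%). Each bin held 86 or 87 of the 347. From the lowest bin to the highest, 6, 2, 0 and 0 microRNAs were past 2-fold upward, and 1, 5, 6 and 1 past 2-fold downward. Base content moves with the groups above, with 31.8% to 45.5% G in the let-7 guides and 8.7% to 22.7% in the miR-30 family. Its part in their differences was not tested.

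**Figure D5:**
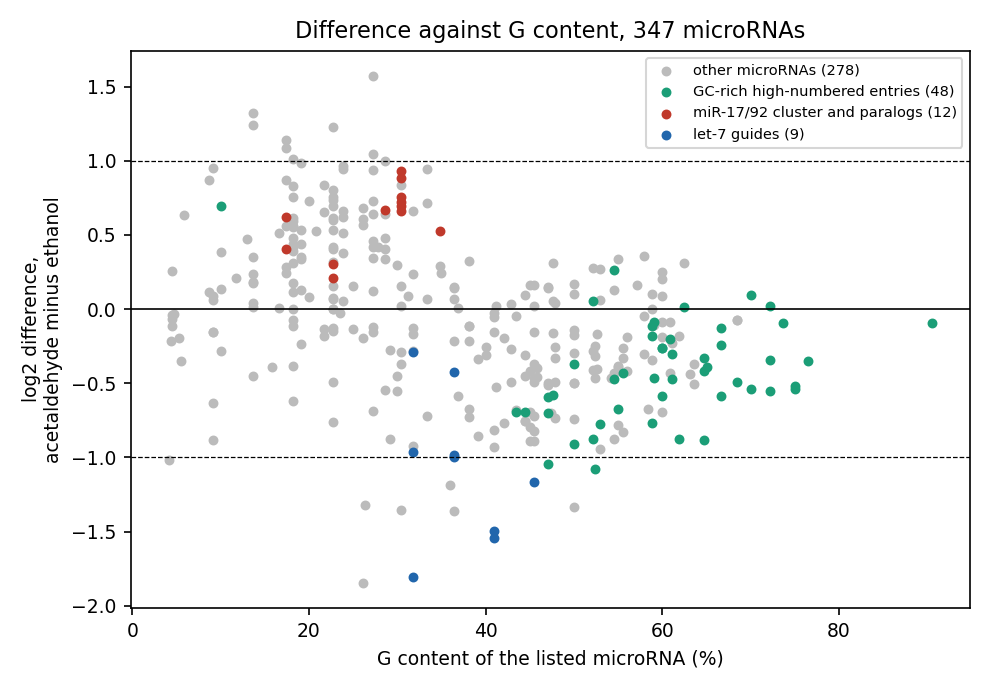
Log2 difference (acetaldehyde minus ethanol) against the G content of the listed microRNA in percent, for 347 microRNAs detected on both arrays; colours mark the let-7 guides, the miR-17/92 cluster with its paralogs and the GC-rich high-numbered entries. Points lie mostly above 0 at low G content and mostly below 0 above 36.4% G among these detected microRNAs, and the let-7 guides lie between 31.8% and 45.5% G.

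Entries that overlap other small RNAs had a median of -0.27 over 6 detected members, of which 5 were below 0, beside 55% of the 347. Besides miR-1973 these included miR-1260b, which matches part of a transfer RNA, at -0.19 ± 0.17. miR-4454, of the same kind, stood at 0.30 ± 0.08 over 3 positions, with 1 ethanol spot dark (1461 beside 6932 to 7462). That value depended on the setting, at 0.74 with all 4 spots kept, 0.0069 in the deposited table and -0.48 with values shifted on the spike probes.

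Listed markers of mammary epithelium were present on both arrays. The 7 markers listed for it, miR-205-5p, miR-203a, miR-31-5p, miR-200c-3p, miR-141-3p, miR-221-3p and miR-222-3p, were all detected with either exposure. Of 6 mesenchymal markers 1 was detected with ethanol and 5 with acetaldehyde, of 6 blood cell markers 0 and 3, and of 6 liver, muscle and neuron markers 1 and 3. Over all 2019 probes the counts were 347 with ethanol and 1430 with acetaldehyde. The detection level was lower on the acetaldehyde array. miR-1, miR-9-5p, miR-122-5p, miR-142-3p, miR-144-3p, miR-199a-3p and miR-451a were detected on neither. The markers detected on both, miR-214-3p (285 with ethanol and 261 with acetaldehyde, -0.13 ± 0.03) and miR-206 (368 and 267, -0.46 ± 0.26), stood at 0.35 and 0.03 without normalization.

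The deposited normalized table, read as log2 of the value plus 50, ranked the microRNAs alike, with a Spearman's rho of 0.98 across the 347. It gave 8 at least 2-fold higher, of which 6 were among the 8 above, and 16 at least 2-fold lower, which held all 13 above. let-7 differences were larger in it, with a median of -1.37, and miR-98-5p stood at -2.05.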

How the data were processed

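MicroRNAs of 3 cultures were read on 1-colour Cy5 arrays of a service provider, per the labels' protocols. The authors deposited the median intensity of each spot, with no background subtraction as judged from the empty spots, and a table of normalized linear intensity per probe whose making the labels do not describe. It is the number of arrays that limits the precision.

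In R 4.3.3, limma (3.58.1) removed background by normexp with an offset of 50, and values were taken to log2, averaged over the 4 spots of a probe and quantile normalized over the 3 arrays. A spot under 50% of its probe's median net signal, for probes with a median over 300, was called dark (13 spots), and its position was left out on all arrays. Detection required the mean spot and at least 50% of the spots to exceed the empty-spot median by 3 SD. With 1 array per group no test was run. Sizes are given, called at 2-fold. The steps were tested on simulated spots. Other scalings, background corrections, spot rules and detection levels were tried, 14 in all, with 2 shifts on control probes, and the relation to G content without the detection filter, added after the data were seen. Quantile normalization fixes the values of the top ranks. Tables and summaries were made with SciPy 1.17.1, NumPy 2.4.6 and pandas 2.3.3 (Python 3.11.15).

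The comparison, members and lists were chosen with earlier results of these data known. Named microRNAs are the 10 highest and 10 lowest past 2-fold at an intensity of at least 500, up to 5 per direction detected on 1 array only, the 2 most intense and the most different member of each list (all members for the let-7, miR-17/92, miR-99/100/125 and miR-30 lists), those nearest to 2-fold, members of the 3 highest and 3 lowest seed families with 3 or more detected members, the 3 hairpins with the widest gap between arms, and the 5 most intense probes of each array. RefSeq entries (GRCh38.p14) were matched by name or, for older names, by sequence for 1785 of 2019 probes, 1774 with an identical sequence.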

Additional observations from a re-analysis of the deposited data

How the results depend on the processing

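No paired analysis was possible because each group has 1 array, and no replicate could be left out. The counts of microRNAs at least 2-fold higher (8) and lower (13) stayed within 1.5 times under the other alternatives, but 15 were higher without normalization between arrays, 5 with cyclic loess, 13 with the empty-spot median subtracted and 13 with no detection filter, and 36 were lower with that subtraction. After the data were seen, values without normalization were also shifted on control probes: the spike probes gave 1 higher and 72 lower, the 5S probes 11 and 12. The let-7 median of -0.997 became -1.24 without normalization, -1.38 with median scaling, -1.35 with cyclic loess, -1.37 in the deposited table, -1.92 on spikes and -1.29 on 5S. The GC-rich median of -0.45 became -0.40, -0.54, -0.54 and -0.58 in the first 4 of these settings, 0.00 with no detection filter and -1.07 on spikes. The miR-17/92 median of 0.66 became 0.0735 on spikes.

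On spikes these medians turned negative: miR-99/100 and miR-125 (-0.19), miR-29 (-0.24), miR-26 (-0.15), miR-15/16 (-0.13), miR-181 (-0.27), the miR-183 cluster (-0.0895), the miR-221 pair (-0.26) and miR-200 (-0.62). The miR-200 median was also negative with median scaling (-0.0850), cyclic loess (-0.0635), block 1 only (-0.0498) and in the deposited table (-0.0752). The HOX cluster median turned positive without normalization (0.21), with median scaling (0.0685) and on 5S (0.16). The cause was not tested, except that with no filter 41 more GC-rich entries enter, 38 of them above 0. The ethanol array's background limits the comparison to 347 of 2019 microRNAs.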
